A study of Mus musculus with 8 samples.

Results

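The comparison described here set mouse skin fibroblasts lacking miR-210 against wild-type fibroblasts at normal oxygen, across every small RNA with enough signal. A feature was kept as a member when its normalized count, the authors' read count after scaling between libraries, reached at least 10 in at least 2 of the 4 normoxia libraries. This held for 1475 of the 2403 small RNAs listed. The members were 554 microRNAs (of 813 listed), 411 genomic transfer RNA features (of 423), 369 small nucleolar RNAs (of 511), 58 piRNA-annotated features (of 349), 37 small nuclear RNAs (of 125), all 22 mitochondrial transfer RNAs, 12 ribosomal RNAs (of 28), 9 miscellaneous RNAs (of 110) and 3 further transfer RNA entries (of 12). No feature of the types lincRNA and non_coding reached the minimum. At its edge, 20 members had 10 as their second-highest normoxia value and 27 features just outside had 9. Only 26 members passed through the libraries of 1 genotype alone, 11 through WT and 15 through KO, so for these a difference between genotypes was built into the rule.

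Both groups were immortalized fibroblasts from mouse skin on a C57BL/6 background, kept for 24 h at 21% O2. The WT_NX group came from wild-type mice and the KO_NX group from mice of genotype mir210lox/lox, with 2 libraries each, numbered 1 and 2. The label mir210lox/lox names floxed alleles and gives neither the Cre nor the time of deletion, and these libraries are called KO after the sample titles and the miR-210 counts below. The labels do not say how many lines, clones or animals were immortalized, nor whether the libraries of a group are separate cultures. The p-values therefore measure only the spread between these libraries, which may be technical, and the genotype cannot be told apart from the particular cell lines. In such bulk samples fewer cells of a type and less RNA per cell cannot be told apart either. In the hypoxia groups the same 2 genotypes were kept for 24 h at 1% O2, again with 2 libraries each. These 4 libraries entered the estimate of the spread and are set beside the normoxia values.

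MicroRNAs are short RNAs cut from the arms of a hairpin precursor and loaded into Argonaute, where the seed, bases 2 to 8 from the 5′ end, does most of the pairing with target messenger RNAs. miR-210 is the microRNA most regularly induced by hypoxia-inducible factors, and it is known for lowering mitochondrial iron-sulphur cluster assembly through Iscu. In normoxia it is present at a lower level, so removing it there takes away a basal and not an induced pool.

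The sequences of the microRNAs on which the results turn are shown to let the reader see which share a seed and which do not. They are the mature sequences of RefSeq (GRCm38.p6), matched by name, with the seed in capitals. First come both arms of miR-210 and the microRNAs among the 12 higher and 12 lower features with the smallest p-values that had a RefSeq entry.
miR-210-3p: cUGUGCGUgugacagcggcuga
miR-210-5p: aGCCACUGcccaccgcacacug
miR-501-3p: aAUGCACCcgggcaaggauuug
miR-679-5p: gGACUGUGaggugacucuuggu
miR-452-5p: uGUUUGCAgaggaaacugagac
miR-665-3p: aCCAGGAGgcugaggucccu
miR-409-3p: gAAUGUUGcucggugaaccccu
miR-877-5p: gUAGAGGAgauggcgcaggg
miR-33-3p: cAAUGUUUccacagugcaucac
let-7b-3p: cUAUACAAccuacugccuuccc
No 2 of these 10 share a seed. The miR-210 arms lie at chr7:141221407-141221428 (3p) and chr7:141221445-141221466 (5p), on the minus strand, outside any other gene of the GENCODE M21 annotation. miR-501-3p (chrX:7241270-7241291) lies in an intron of Clcn5, miR-452-5p (chrX:72262271-72262292) in an intron of Gabre, miR-877-5p (chr17:35960795-35960814) in an intron of Abcf1 and miR-33-3p (chr15:82198167-82198188) in an intron of Srebf2, each on the strand of its host. let-7b-3p (chr15:85707379-85707400) overlaps an exon of the noncoding transcript Lncppara. miR-665-3p (chr12:109586368-109586387), miR-679-5p (chr12:109715587-109715608) and miR-409-3p (chr12:109743204-109743225, in an intron of Mirg) belong to the imprinted Dlk1-Dio3 domain. miR-669b-3p, miR-467a-5p, miR-467b-5p, miR-467c-5p, miR-299-3p and miR-374-5p also had small p-values and are named only.

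A second set is shown because its members share 1 seed and were all lower in KO, as described below.
miR-17-5p: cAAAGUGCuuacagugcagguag
miR-20a-5p: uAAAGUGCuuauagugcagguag
miR-20b-5p: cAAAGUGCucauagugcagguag
miR-93-5p: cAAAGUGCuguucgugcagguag
miR-106a-5p: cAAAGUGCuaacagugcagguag
miR-106b-5p: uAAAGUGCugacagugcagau
These 6 come from 3 clusters. miR-17-5p (chr14:115043684-115043706) and miR-20a-5p (chr14:115044183-115044205) lie in an exon of Mir17hg, the host transcript of the miR-17 to miR-92a cluster. miR-93-5p (chr5:138165574-138165596) and miR-106b-5p (chr5:138165787-138165807) lie within Mcm7, a helicase subunit gene of DNA replication. miR-20b-5p (chrX:52742159-52742181) and miR-106a-5p (chrX:52742541-52742563) lie on the X chromosome. In all, 412 of the 554 microRNA members matched a RefSeq name, and together they carried 343 distinct seeds.

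The normoxia libraries summed to 9807260 and 11453341 normalized counts in WT and to 8618630 and 10324869 in KO. Replicates correlated over the members with r of 0.985 in WT and 0.973 in KO (log2 values), and 7.59% and 14.6% of members differed by over 1 on the log2 scale between the libraries of a group. The fibroblast and mesenchymal microRNAs used as markers had 22 features of 22 listed among the members, with summed counts of 4069202 or more in each normoxia library, led by miR-21-5p, miR-22-3p and miR-125b-5p. The 4 epithelial markers with enough counts summed to at most 221 in any normoxia library.

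miR-210 was lost from the KO libraries. The guide strand miR-210-3p held 4786 and 8676 in WT and 23 and 14 in KO. It ranked 200th and 139th among all listed features in the WT libraries and 1281st and 1385th in the KO libraries, and it made up 0.0488% and 0.0758% of the WT totals (95% exact binomial intervals 0.0474% to 0.0502% and 0.0742% to 0.0774%, counting error only). The passenger strand miR-210-5p held 11 and 21 in WT and 1 and 1 in KO. WT and KO did not overlap for either arm, and the guide strand was the sole feature of all tested to pass.

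Differences are given throughout as KO minus WT on the log2(value + 1) scale, with the standard error of a limma fit over the 8 libraries and Benjamini-Hochberg adjustment over 1540 tested features. miR-210-3p fell by 8.41 (SE 0.50, limma adjusted p = 3.06e-05), the single feature past 0.05, or 0.0649% of those tested, with 0 higher in KO. For miR-210-5p, which passed the count minimum through WT alone, the difference was −3.02 (SE 0.60, limma adjusted p = 0.231), and with a pseudocount of 8 it was −1.38.

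**Figure D1:**
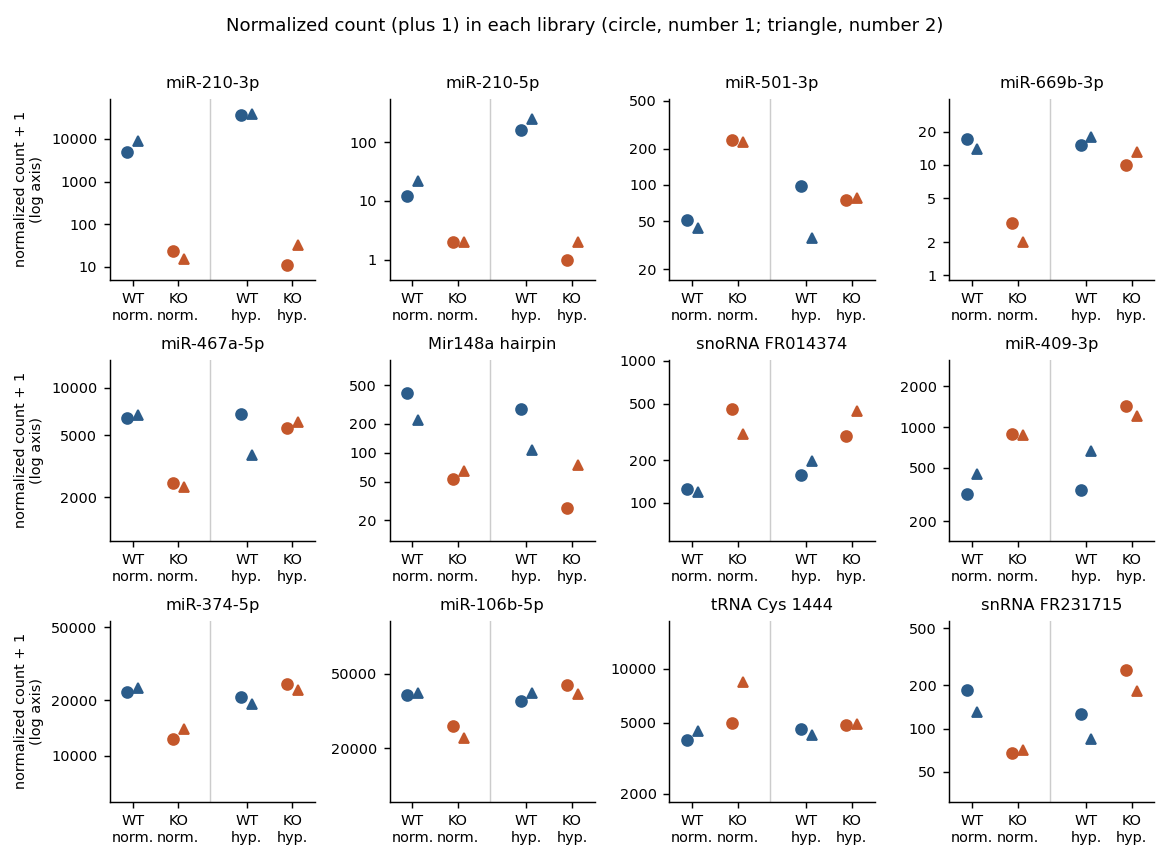
Normalized count plus 1 (log axis) of 12 features in each of the 8 libraries; blue is WT and orange is KO, circles are number 1 and triangles number 2. In normoxia miR-210-3p lies at 4786 and 8676 in WT and at 23 and 14 in KO, and in the panels of miR-501-3p, miR-467a-5p, miR-374-5p, miR-106b-5p and FR231715 the gap seen in normoxia is smaller or turned in hypoxia.

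After miR-210 came microRNAs and small nucleolar RNAs, none of which passed the adjusted threshold. miR-501-3p, an arm of a hairpin in the Clcn5 gene, held 50 and 43 in WT and 233 and 225 in KO. The KO libraries were alike and lay far above both WT libraries. The difference was 2.28 (SE 0.44, limma adjusted p = 0.231). In hypoxia miR-501-3p held 97 and 35 in WT against 74 and 77 in KO, so there the groups overlapped. miR-669b-3p, from the microRNA cluster inside an intron of Sfmbt2, held 16 and 13 in WT and 2 and 1 in KO, a difference of −2.65 (SE 0.55, limma adjusted p = 0.231). It is one of the members that passed the count minimum through WT alone, so a difference was built into its choice. Its KO counts are under the floor of 3 counts, and with a pseudocount of 8 the difference was −1.24. The much more abundant miR-467a-5p of the same cluster held 6448 and 6721 in WT and 2468 and 2332 in KO. Replicates of each group were close together and the groups stood far apart (−1.46, SE 0.31, limma adjusted p = 0.238). The values of miR-467b-5p (645 and 672 in WT, 247 and 233 in KO) kept nearly the same proportion to these in each library, so it is not taken as a separate measurement.

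Several abundant microRNAs were lower in both KO libraries. miR-374-5p held 22299 and 23252 in WT and 12338 and 13967 in KO (−0.79, SE 0.24). miR-18a-5p, of the miR-17 to miR-92a cluster, held 30326 and 21584 in WT and 11543 and 13909 in KO (−1.01, SE 0.32). miR-106b-5p held 38711 and 39405 in WT and 26299 and 22869 in KO (−0.67, SE 0.25). For all 3 the lowest WT library was above the highest KO library, and the limma adjusted p was 0.324 for each. miR-877-5p held 157 and 180 in WT and 32 and 96 in KO (−1.58, SE 0.46), with −0.80 without KO normoxia number 1. miR-33-3p, the passenger arm of a hairpin in Srebf2 (a gene for a sterol-regulated transcription factor), held 185 and 234 against 109 and 94 (−1.03, SE 0.30).

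Among microRNAs higher in KO, miR-409-3p held 316 and 445 in WT and 892 and 876 in KO (1.23, SE 0.35), and miR-665-3p held 48 and 94 in WT and 214 and 159 in KO (1.44, SE 0.41). Both belong to the Dlk1-Dio3 domain. miR-452-5p, from an intron of the GABA receptor gene Gabre on the X chromosome, held 124 and 78 in WT and 190 and 250 in KO (1.14, SE 0.32). Its other arm, miR-452-3p, held 43 and 29 in WT and 65 and 73 in KO (0.94). In hypoxia the KO minus WT differences of miR-452-5p and miR-452-3p were 0.98 and 0.97. The limma adjusted p of miR-409-3p, miR-665-3p and miR-452-5p was 0.324.

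Without adjustment, 207 features had p under 0.05 (13.4% of those tested), 133 higher in KO (8.64%) and 74 lower (4.81%). All of these but 1 were members. In 646 of the tested features (41.9%) the 2 genotypes did not overlap, 338 higher in KO (21.9%) and 308 lower (20.0%). How unevenly the unadjusted counts split depended on the scaling, and with the libraries scaled to their microRNA totals they were 190 higher and 13 lower. That scaling moved the median difference of all members from −0.06 to 0.17. Single libraries also weighed on the total, which was 65 without WT normoxia number 1 (32 higher and 33 lower), 90 without KO normoxia number 2 and 123 without WT normoxia number 2.

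By type, microRNAs as a class lay lower in KO and genomic transfer RNAs higher. MicroRNAs took 78.8% and 80.7% of the WT totals and 75.3% and 76.7% of the KO totals, a difference of −3.74 percentage points. Genomic transfer RNA features took 7.14% and 7.74% in WT and 9.59% and 11.0% in KO, a difference of 2.84 points. Ribosomal RNA took 2.05% and 1.69% in WT and 2.19% and 2.88% in KO. The groups did not overlap for these 3 types. With 2 libraries against 2 the exact two-sided permutation test cannot go below 0.333, which each of the 3 reached (adjusted p = 0.917 over 11 types), and shares of 1 total are not independent of each other. Small nucleolar RNAs took 9.60% and 7.39% in WT and 9.99% and 6.93% in KO, where the libraries of a number were closer to each other than those of a genotype.

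**Figure D2:**
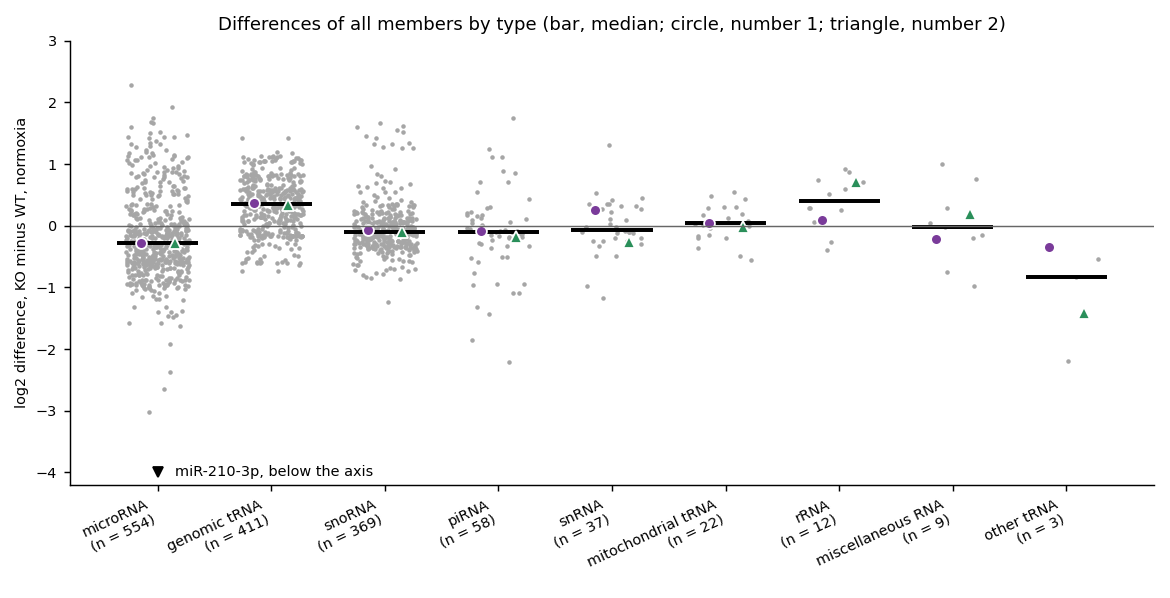
Log2 difference (KO minus WT, normoxia) of each of the 1475 members by type; the bar is the median over the type, and the circle and triangle are the medians within number 1 and number 2. The microRNA median is −0.28 and the genomic tRNA median 0.36, each at nearly the same value within both numbers, while the small nuclear RNA medians (0.26 and −0.26) lie on opposite sides of 0.

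The 554 microRNAs had a median difference of −0.28, against −0.06 over all members. The median was −0.27 within number 1 and −0.27 within number 2, and 387 of the 554 were lower in KO. In 195 the genotypes did not overlap with KO lower (35.2%) and in 75 with KO higher (13.5%). Over all tested features those shares were 20.0% lower and 21.9% higher. The microRNA counts include 15 members that passed the count minimum through 1 genotype alone, so for those 15 a difference was built into the rule. Scaled to the microRNA total the median was −0.05, and without KO normoxia number 1 it was −0.17. Of the 75 microRNAs higher without overlap, 55 came from the Dlk1-Dio3 domain. Of all 167 higher in KO, 72 did. Outside the Dlk1-Dio3 domain and the Sfmbt2 families, 20 of 424 microRNAs did not overlap with KO higher and 146 with KO lower. Among these are 10 of the members that passed through 1 genotype alone. By chromosome, the median was 0.88 over the 86 microRNAs of chromosome 12, which carries Dlk1-Dio3. It was −0.64 over the 77 of chromosome 2, which carries Sfmbt2, and −0.68 over the 20 of chromosome 14, which carries the miR-17 to miR-92a cluster. It lay between −0.11 and −0.52 on every other chromosome.

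The Dlk1-Dio3 domain is an imprinted region whose noncoding RNAs, including a very large group of microRNAs and tandem small nucleolar RNAs, are expressed from the maternal copy. Of its 90 listed microRNAs 73 were members, with a median difference of 0.97, and 72 of the 73 were higher in KO. The genotypes did not overlap for 55 of them (75.3%), all with KO higher, and 32 had an unadjusted p under 0.05. Over all tested features, 21.9% did not overlap with KO higher and 8.64% were higher at that p-value. The counts of this list include 4 members that passed the count minimum through 1 genotype alone, so for those 4 a difference was built into the rule. The summed counts of the 73 were 16363 and 28495 in WT and 41750 and 44739 in KO. The KO libraries were close to each other, while WT number 2 lay above WT number 1 by a median of 0.74, so the list's median was 1.40 within number 1 and 0.52 within number 2. Without WT normoxia number 1 it was 0.58. The 1 member that was lower, miR-758-3p, held 3 and 12 in WT and 2 and 11 in KO. miR-299-3p, at the other end, held 10 and 8 in WT and 24 and 56 in KO (1.92, SE 0.52). miR-379-5p, the first microRNA of the large cluster of the domain, held 1742 and 3126 in WT and 4202 and 4979 in KO (0.97, SE 0.40, limma adjusted p = 0.329), with 0.55 without WT normoxia number 1. Both arms were higher in KO in all 28 hairpins of the domain that had both arms among the members.

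The Sfmbt2 families (miR-297, miR-466, miR-467 and miR-669) are a rodent-specific expansion of microRNAs in an intron of Sfmbt2, a polycomb gene expressed from the paternal copy in extraembryonic tissue. Of 73 listed, 57 were members, 5 of which the file places on other chromosomes. Their median difference was −0.89 and 55 of the 57 were lower in KO. Of the 57, 49 did not overlap with KO lower (86.0%), and 32 had an unadjusted p under 0.05. Over all tested features, 20.0% did not overlap with KO lower and 4.81% were lower at that p-value. The counts of this list include miR-669b-3p, which passed the count minimum through WT alone. The summed counts were 21326 and 20657 in WT and 12022 and 8849 in KO, so here the WT libraries were alike and the KO libraries were not. Without KO normoxia number 2 the median was −0.50. miR-466b-3p held 2743 and 2457 in WT and 1740 and 1131 in KO (−0.89, SE 0.30), with −0.58 without KO normoxia number 2. miR-669a-3p, looked up after the values were seen, held 1323 and 1224 in WT and 826 and 522 in KO (−0.95). The copies of these families have near-identical sequences, so reads may be shared among them and the members are not separate measurements. The exceptions were miR-466f-5p (9 and 17 against 20 and 16) and miR-297b-5p (16 and 11 against 20 and 9), both near the count minimum.

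**Figure D3:**
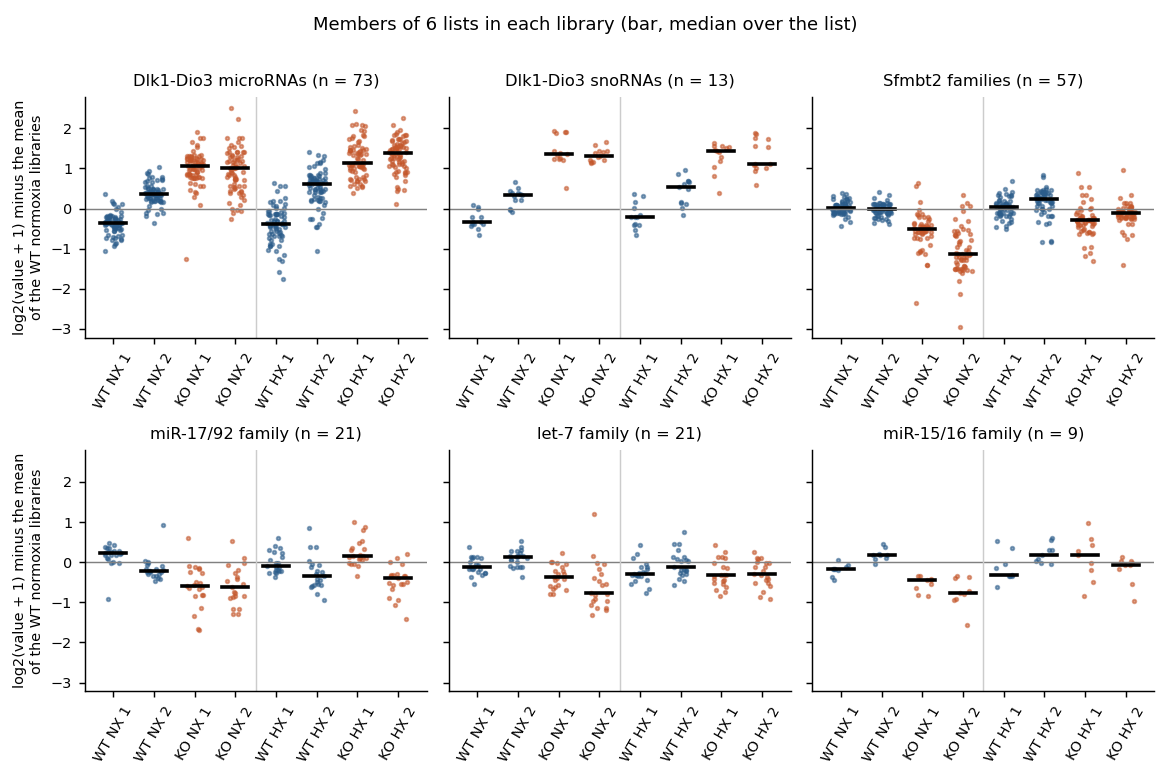
Each point is 1 member, as log2(value + 1) minus its mean in the WT normoxia libraries, in each of the 8 libraries; the bar is the list's median. The medians of the Dlk1-Dio3 microRNAs and small nucleolar RNAs lie above those of the WT libraries in all 4 KO libraries, that of the Sfmbt2 families is lowest in the 2 KO normoxia libraries, and those of the miR-17/92, let-7 and miR-15/16 families lie below 0 in both KO normoxia libraries.

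Families tied to cell growth were lower in KO, as were most microRNAs. Outside the Dlk1-Dio3 domain and the Sfmbt2 families, 331 of 424 microRNAs were lower, with a median of −0.32. Of those 424, 34.4% were lower without overlap. The miR-17/92 family, an E2F- and MYC-driven group that favours proliferation, had 21 members, of which 20 were lower and 13 did not overlap (61.9%). Its median difference was −0.67 and its exception was miR-106b-3p (256 and 928 in WT, 739 and 704 in KO). The 6 members with the seed AAAGUGC, printed above, were all lower, and none overlapped between genotypes, with a median of −0.71. miR-17-5p held 38730 and 28765 in WT and 21237 and 18605 in KO. miR-20a-5p held 37619 and 32703 in WT and 22154 and 14358 in KO. Their rarer X-linked relative miR-20b-5p held 92 and 72 in WT and 46 and 59 in KO. For all 3 both WT libraries were above both KO libraries, whether the microRNA was abundant or rare. In hypoxia the median of these 6 was −0.02.

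The miR-15/16 family, known as a brake on cell division, had 9 members, all of them lower in KO and none overlapping, with a median of −0.60. miR-16-5p held 47980 and 56239 in WT and 35328 and 27274 in KO (−0.74, SE 0.30). miR-15a-3p held 511 and 674 in WT and 324 and 344 in KO (−0.81, SE 0.28). In hypoxia the family's median was −0.09. A family that favours growth and a family that restrains it were thus both lower in KO in normoxia, as were most microRNAs. Over the alternatives run, the miR-17/92 median lay between −0.84 and −0.43 and the miR-15/16 median between −0.77 and −0.37.

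The let-7 family, which holds back growth and stem cell programmes, had 21 members with a median of −0.55, and 19 of them were lower. Without KO normoxia number 2 the median was −0.36. Its members were not alike. let-7b-3p held 552 and 462 in WT and 291 and 230 in KO (−0.96, SE 0.29). The 5 members with the seed UAUACAA, all passenger arms including let-7b-3p, were each lower without overlap (median −0.80). Of these, let-7a-1-3p (2542 and 3191 in WT, 1912 and 1646 in KO) and let-7c-2-3p (2530 and 3186 in WT, 1893 and 1654 in KO) had nearly equal values. They are not taken as separate measurements. Of the 10 members with the guide seed GAGGUAG, let-7 guides with miR-98-5p and miR-1961, 4 did not overlap (median −0.39). let-7g-5p held 6801 and 8509 in WT and 7619 and 7488 in KO, and let-7i-5p held 4606 and 7691 in WT and 5994 and 13794 in KO.

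Other families gave smaller or less even values. The miR-34 family, here the p53-induced miR-34 listed together with miR-449, had a median of −0.55 over 9 members. Among them miR-34c-5p held 20727 and 24565 in WT and 13325 and 16693 in KO (−0.60, SE 0.30). The family's exceptions, miR-34a-3p and miR-449a-5p, were higher in both KO libraries. miR-449a-5p was near the count minimum (12 and 10 in WT, 13 and 15 in KO). The cluster of miR-322 and miR-503 had a median of −0.72 with all 10 members lower but 3 not overlapping, since WT number 2 lay far above WT number 1 (miR-322-3p held 1500 and 3550 in WT, 953 and 1467 in KO). Without WT normoxia number 2 that median was −0.22, without KO normoxia number 1 it was −0.35 and without WT normoxia number 1 it was −1.10. The smooth-muscle and fibroblast cluster of miR-143 and miR-145 had a median of −0.61 over 4 members. miR-143-3p held 294436 and 500343 in WT and 205834 and 313661 in KO, so its genotypes overlapped. The median of the 4 was −0.26 without WT normoxia number 2, −0.34 without KO normoxia number 1 and −0.95 without WT normoxia number 1. Medians were −0.23 for miR-30, −0.16 for the collagen-targeting miR-29 family, −0.15 for the Dnm3os cluster and 0.18 for miR-221 and miR-222. Those of miR-30, miR-29 and Dnm3os were 0.004, 0.08 and 0.09 when scaled to the microRNA total, and that of miR-221 and miR-222 was −0.20 without KO normoxia number 1.

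MicroRNAs that the literature links to low oxygen, other than miR-210, had 44 members with a median of −0.40, and 38 were lower in normoxic KO cells. Of these members, 18 did not overlap with KO lower (40.9%) and 1 with KO higher (2.27%). Over all microRNA members those shares were 35.2% and 13.5%, so the share lower lay near that of microRNAs as a class. Within this list miR-494-3p, a Dlk1-Dio3 microRNA, was the 1 higher without overlap (110 and 156 in WT, 246 and 245 in KO). miR-107-5p held 41 and 45 in WT and 10 and 38 in KO. miR-24-3p, one of its most abundant members, held 191638 and 290469 in WT and 146576 and 193612 in KO, where the highest KO library was above the lowest WT library. Without KO normoxia number 1 the median of this list was −0.26. Scaled to the microRNA total it was −0.16, against −0.05 for all microRNAs.

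Among the most abundant microRNAs the differences were uneven. miR-21-5p held 2815901 and 2991957 in WT and 2268463 and 2983225 in KO (−0.16, SE 0.28), and miR-22-3p held 781539 and 1172508 in WT and 631543 and 1298459 in KO (−0.08, SE 0.42). The genotypes overlapped in both, and without KO normoxia number 1 the differences were 0.04 and 0.44. miR-19b-3p, of the miR-17/92 family, held 252383 and 228352 in WT and 169115 and 163805 in KO (−0.53), with no overlap. miR-23a-3p held 134891 and 178789 in WT and 131313 and 102653 in KO (−0.42), also with no overlap, with −0.22 without WT normoxia number 2 and −0.24 without KO normoxia number 2. The median of the 22 fibroblast markers was −0.14, and 0.09 when scaled to the microRNA total. Of the markers of other cell types, miR-126-3p (endothelial) held 119 and 140 in WT and 99 and 76 in KO, miR-205-5p (epithelial) 96 and 159 against 74 and 178, and miR-206-3p (muscle) 166 and 85 against 107 and 101. The 3 muscle members had a median of −0.87, which was −0.15 without KO normoxia number 2, and miR-133a-3p held 21 and 31 in WT and 14 and 13 in KO. Of 5 neural or melanocyte members 4 were lower without overlap and 1 higher (median −0.32), where 35.2% of all microRNA members were lower without overlap. Of the 4, miR-128-3p held 694 and 664 in WT and 568 and 338 in KO. The 1 higher, miR-219-1-3p (9 and 6 in WT, 10 and 16 in KO), passed the count minimum through KO alone, so its difference was built into the rule. The haematopoietic markers summed to 11639 and 7782 in WT and were led by miR-155-5p and miR-451, with a median of −0.48 over 7 members, and 0.16 without KO normoxia number 2. Whether such cells or the fibroblasts themselves hold these few reads was not tested.

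Within a hairpin the arms usually lay on the same side. Of 167 hairpins with both arms among the members, 138 had both arms on the same side of 0. In 13 hairpins, miR-210 among them, the arms differed by over 1. The widest gaps outside miR-210 belonged to miR-669b (2.65) and miR-501 (2.61), followed by miR-206 (1.72). In miR-669b, whose 3p arm is near the floor, the 5p arm held 27 and 31 in WT and 26 and 32 in KO while the 3p arm went from 16 and 13 to 2 and 1. In miR-501 the 5p arm held 1098 and 1357 in WT and 696 and 1355 in KO (−0.33, SE 0.40, and 0.15 without KO normoxia number 1), while the rarer 3p arm was far higher in both KO libraries. The neighbouring Clcn5 microRNA miR-500 showed the same order of arms, with 0.77 for 3p (373 and 527 in WT, 722 and 790 in KO) and −0.59 for 5p. miR-500-3p and miR-501-3p are close in sequence, so reads may be shared between them. The 9 members of the Clcn5 cluster had a median of −0.06, and 0.17 when scaled to the microRNA total.

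A feature annotated as a whole microRNA hairpin stood apart from its own arms. ENSMUST00000083571, the Mir148a precursor, held 413 and 219 in WT and 52 and 63 in KO, with no overlap (−2.37, SE 0.58, limma adjusted p = 0.324), and in hypoxia the difference was −1.94. Both mature arms, looked up after this was seen, did not follow. miR-148a-3p held 2403 and 5350 in WT and 2910 and 3655 in KO (−0.14), and miR-148a-5p held 94 and 155 in WT and 91 and 208 in KO (0.19). How reads were assigned between the precursor and its arms was not given in the sources used here.

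Small nucleolar RNAs guide chemical modification of other RNAs, mostly ribosomal RNA. C/D box members guide 2′-O-methylation and carry a C box near the start and a D box near the end. The Dlk1-Dio3 ones are orphans with no known ribosomal target. The 369 members had a median of −0.11. Of them, 48 did not overlap with KO higher (13.0%) and 62 with KO lower (16.8%), against 21.9% and 20.0% of all tested features. An unadjusted p under 0.05 was found for 13, each higher in KO. Of those 13, 12 were Dlk1-Dio3 small nucleolar RNAs. The remaining one, FR382376, held 4 and 10 in WT and 20 and 18 in KO. Scaled to the microRNA total, the median of all 369 was 0.13, and without KO normoxia number 2 it was 0.02.

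The Dlk1-Dio3 members with the smallest p-values are shown as the deposited file gives them, because they are tandem relatives that differ in the stretch between their boxes. Capitals mark the C box TGATGA within the first 20 bases and the last CTGA within the final 20, searched on the printed strand with no mismatch.
FR014374: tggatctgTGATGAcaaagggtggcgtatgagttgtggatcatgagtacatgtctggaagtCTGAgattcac
FR115095: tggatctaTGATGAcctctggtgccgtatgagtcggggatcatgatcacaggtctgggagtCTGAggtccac
FR310934: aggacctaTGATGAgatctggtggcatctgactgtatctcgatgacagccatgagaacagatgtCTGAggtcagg
FR140834: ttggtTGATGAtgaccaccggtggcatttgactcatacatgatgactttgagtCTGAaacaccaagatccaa
Both boxes in this form were found in 8 of the 13 Dlk1-Dio3 members and in 84 of all 369 small nucleolar RNA members (22.8%). A miss says only that these letters are not in that window. By sequence, FR014374 matched the GENCODE gene Gm26922, FR115095 matched DQ267102, FR310934 matched AF357341 and FR140834 matched Gm25854. The file's own coordinates, in a build not given in the sources used here, place them at chr12:110892837-110892908, chr12:110894555-110894626, chr12:110919729-110919803 and chr12:110925008-110925079.

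All 13 Dlk1-Dio3 small nucleolar RNAs were higher in KO, with a median of 1.34. The genotypes did not overlap for 12 (92.3%), against 21.9% of all tested features with KO higher. The counts of 13 and 12 include FR343111 (8 and 8 in WT, 32 and 20 in KO). It passed the count minimum through KO alone, so its difference was built into the rule. FR014374 held 125 and 118 in WT and 461 and 305 in KO (1.62, SE 0.33, limma adjusted p = 0.231). FR310934 held 106 and 144 in WT and 295 and 334 in KO (1.34, SE 0.33). FR115095 held 23 and 37 against 81 and 90 (1.52, SE 0.41), and FR140834 held 55 and 93 against 190 and 158 (1.26, SE 0.35). Each KO library was above each WT library in all 4. FR280892 and FR325285 are shorter entries inside FR014374 and FR310934, with similar counts, and are not separate measurements. The member that overlapped, FR101519, held 426 and 1072 in WT and 968 and 1526 in KO. The summed counts of the 13 were 1359 and 2394 in WT and 4004 and 4512 in KO, with a median of 1.75 within number 1 and 1.21 within number 2. The other 356 small nucleolar RNAs had a median of −0.12. Among them the 162 of up to 100 bases had a median of −0.19 with 41 not overlapping with KO lower and 8 with KO higher. The 194 longer ones had a median of −0.02, with 21 lower and 28 higher.

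Transfer RNA features are the genomic gene copies, and their reads can be whole transfer RNAs or fragments, which the file does not separate. Many copies have the same sequence: the 411 members held 315 distinct sequences, so copies of an anticodon are counted here as features and not as measurements. Their median difference was 0.36 (0.36 within number 1, 0.34 within number 2), 306 of 411 were higher in KO, and 80 higher and 1 lower had an unadjusted p under 0.05. In 196 the genotypes did not overlap with KO higher (47.7%), against 18 with KO lower (4.38%). Over all tested features, 21.9% did not overlap with KO higher and 20.0% with KO lower. At an unadjusted p under 0.05, 8.64% of all tested features were higher and 4.81% lower. The transfer RNA counts include 2 features that passed the count minimum through 1 genotype alone, so their difference was built into the rule. Of the 315 distinct sequences, 132 did not overlap with KO higher and 19 with KO lower. The median was 0.59 when scaled to the microRNA total and 0.10 in hypoxia.

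Anticodons differed in their direction. Of 45 anticodons with at least 3 features, 31 had a median above 0, 22 were above 0 within both numbers and 5 below 0 within both. The most abundant member of 4 anticodons is shown, to set the sequences of 3 of the 5 anticodons with the highest medians beside a group that ran lower, with the anticodon in capitals. The file's sequences are each 1 base longer than the span of its coordinates.
chr11.tRNA1444-CysGCA: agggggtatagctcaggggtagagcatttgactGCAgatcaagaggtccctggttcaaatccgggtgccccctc
chr10.tRNA856-AspGTC: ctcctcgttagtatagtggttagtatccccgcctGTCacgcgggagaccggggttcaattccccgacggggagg
chr9.tRNA961-GluTTC: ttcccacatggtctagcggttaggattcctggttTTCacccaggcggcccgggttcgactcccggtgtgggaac
chr2.tRNA1509-SerGCT: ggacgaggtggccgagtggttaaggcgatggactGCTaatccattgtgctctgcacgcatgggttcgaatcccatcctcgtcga
In the file's build these lie at chr11:97631142-97631214, chr10:90644841-90644913, chr9:104310996-104311068 and chr2:118872485-118872567.

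The cysteine group was the largest, with 56 features of 31 distinct sequences, all higher in KO and 54 of them not overlapping (median 0.87). The copy printed above held 3973 and 4468 in WT and 4939 and 8407 in KO. Its sums were 13409 and 13936 in WT and 18094 and 30256 in KO, so KO number 2 stood furthest out, and the medians within numbers were 0.50 and 1.40. The aspartate copy held 6760 and 7104 in WT and 10111 and 10890 in KO (0.60), and 15 of 16 aspartate features did not overlap with KO higher (median 0.81). The glutamate copy with anticodon TTC held 5884 and 7745 in WT and 7849 and 21466 in KO (0.94), again with KO number 2 far above the rest. For glutamate with anticodon CTC all 12 features were higher without overlap, with nearly equal medians of 0.51 and 0.61 within the numbers. All 10 glutamine features with CTG were also higher without overlap, with 0.79 within number 1 and 0.28 within number 2, as were all 7 glycine features with TCC, with 0.76 and 0.42.

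Among single transfer RNA features, chr11.tRNA1022-ArgCCT had the smallest p, with 1559 and 1896 in WT and 3263 and 4668 in KO (1.18, SE 0.36, limma adjusted p = 0.324). chr9.tRNA1035-LysCTT held 6920 and 7700 in WT and 11495 and 14331 in KO (0.81, SE 0.25). The WT libraries were alike and both KO libraries higher in both. All 22 serine features were lower in KO (median −0.34, with −0.30 and −0.48 within the numbers and 0.14 in hypoxia), and the copy printed above held 1824 and 1533 in WT and 1667 and 1110 in KO (−0.30). The 1 transfer RNA feature lower at an unadjusted p under 0.05 was chr11.tRNA400-SerCGA, with 2293 and 2077 in WT and 1670 and 1023 in KO (−0.74). All 7 phenylalanine features were lower (median −0.59), but this came from number 1 alone (−1.26, against 0.07 within number 2). All 18 proline features were also lower (−0.17), with 0.18 and −0.52 within the numbers. Scaled to the microRNA total, 376 of the 411 features were higher in KO.

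**Figure D4:**
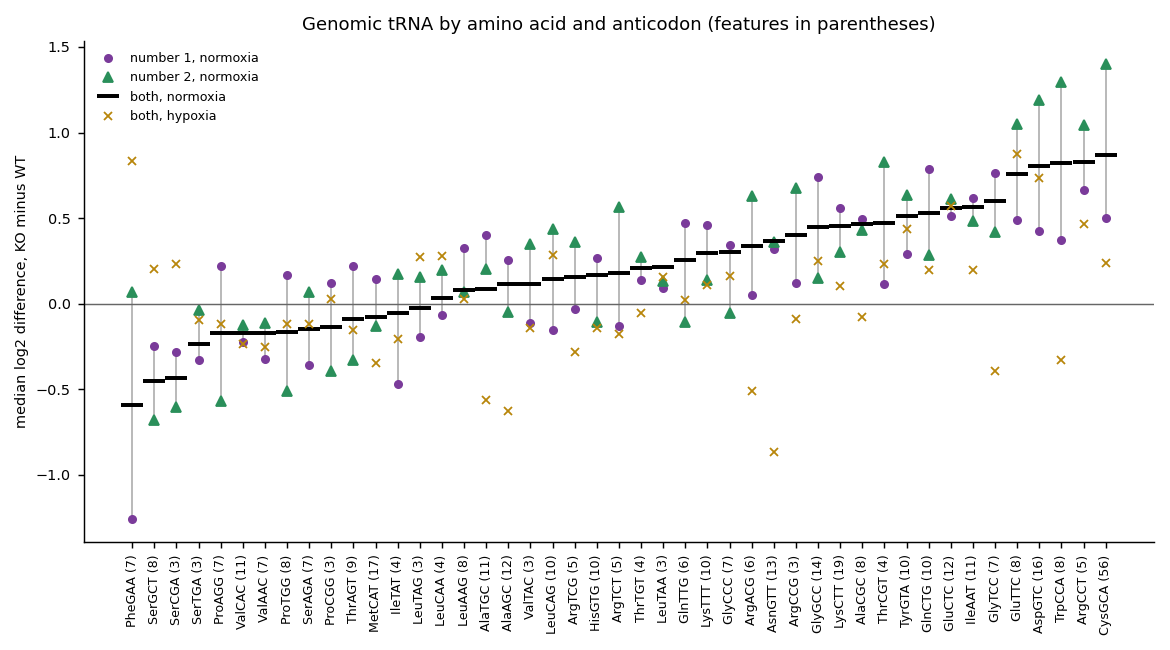
Median log2 difference (KO minus WT) of genomic tRNA features by amino acid and anticodon, for the anticodons with at least 3 features; circles and triangles are the medians within number 1 and number 2 in normoxia, bars those over both, and crosses those in hypoxia. Cysteine (0.87) lies at the high end and phenylalanine (−0.59) and serine at the low end, and crosses lie far from the bars for several anticodons, asparagine and tryptophan among them.

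The remaining types showed few differences. The 12 ribosomal RNA features had a median of 0.40 (0.09 within number 1, 0.70 within number 2), which was 0.22 without WT normoxia number 2, 0.26 without KO normoxia number 2 and 0.62 without KO normoxia number 1. None had an unadjusted p under 0.05. The dominant one, ENSMUST00000104719 (the 5S gene n-R5s194), held 189303 and 178962 in WT and 179825 and 281624 in KO (0.29, SE 0.37), with −0.03 without KO normoxia number 2. Of 37 small nuclear RNAs, 1 had an unadjusted p under 0.05. This was FR231715, whose sequence matches Gm23907, with 185 and 130 in WT and 67 and 70 in KO (−1.17, SE 0.35). In hypoxia it lay the other way, at 126 and 84 in WT and 255 and 181 in KO (1.05), and the test of the change between the 2 oxygen levels gave 2.22 (SE 0.49, limma adjusted p = 0.917). The 37 had a median of −0.07, which was −0.32 without KO normoxia number 1 and 0.29 without KO normoxia number 2. The 22 mitochondrial transfer RNAs had a median of 0.05, and −0.18 without KO normoxia number 2. mt-Tv held 5157 and 6278 in WT and 3683 and 4480 in KO (−0.49, SE 0.26), and mt-Te held 1131 and 1006 against 1161 and 1795 (0.44, SE 0.30, and 0.12 without KO normoxia number 2). No mitochondrial transfer RNA had an unadjusted p under 0.05.

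Of the 58 piRNA-annotated features, 2 were higher and 3 lower at an unadjusted p under 0.05. Over all tested features the shares were 8.64% higher and 4.81% lower. Of the 58, 5 passed the count minimum through 1 genotype alone, so for those 5 a difference was built into the rule. piRNAs are germline RNAs that silence transposons, and in fibroblasts such entries can hold fragments of other RNAs. FR247288 held 149 and 80 in WT and 40 and 13 in KO (−2.20, SE 0.74), and 161 and 33 in WT hypoxia against 17 and 14 in KO hypoxia (−2.18). Without KO normoxia number 2 its normoxia difference was −1.43. FR370763 held 21 and 33 in WT and 7 and 12 in KO (−1.42, SE 0.48), with −1.27 in hypoxia. In both features each KO library was below each WT library at both oxygen levels. The abundant FR298990 held 19911 and 20450 in WT and 18094 and 18237 in KO (−0.15, SE 0.31). The 9 miscellaneous RNAs had a median of −0.01, and the 3 further transfer RNA entries, 2 of which match mt-Ta and mt-Tf, were all lower at counts of at most 58.

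The same genotype difference was measured in hypoxia, in 4 libraries that share none with the normoxia comparison but come from the same labelled sources. Deviations of same-numbered libraries correlated between normoxia and hypoxia, with r of 0.55 in WT and 0.15 in KO. Recurrence in hypoxia is therefore not an independent repeat. In hypoxia 2 of 1540 features passed the adjusted threshold (0.130%), both arms of miR-210, and 9.03% had an unadjusted p under 0.05. Not overlapping were 19.2% with KO higher and 16.6% with KO lower. Of the 334 members higher without overlap in normoxia, 167 (50%) were so in hypoxia too, which is 58.2% of the 287 members higher without overlap in hypoxia. Of the 295 lower without overlap, 83 (28.1%) were so in hypoxia, or 33.6% of the 247 there. A further 19 went from higher to lower and 18 from lower to higher. Across the 1473 members other than miR-210 the 2 sets of differences had a Pearson r of 0.47, and across the 1330 outside both imprinted clusters 0.28. These are descriptions across features that share libraries and, in part, sequences.

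Groups recurred to different degrees. The Dlk1-Dio3 microRNAs had a median of 1.20 in hypoxia with all 73 higher, and 54 were higher without overlap at both oxygen levels. Their small nucleolar RNAs had 1.29. As in normoxia, WT number 2 lay above WT number 1 for the Dlk1-Dio3 microRNAs in hypoxia, by a median of 0.92. The Sfmbt2 families had −0.41 in hypoxia, where 51 of 57 were lower. miR-467a-5p, −1.46 in normoxia, held 6836 and 3705 in WT hypoxia and 5554 and 6021 in KO hypoxia (0.20). miR-374-5p held 20849 and 19093 against 24614 and 22683 (0.24), higher in KO without overlap, where in normoxia it had been lower without overlap. MicroRNAs as a class had −0.05 in hypoxia and genomic transfer RNAs 0.10. Asparagine features with anticodon GTT, such as chr3.tRNA757-AsnGTT, went from 0.44 in normoxia (277 and 335 in WT, 375 and 455 in KO) to −0.80 in hypoxia (619 and 805 in WT, 381 and 430 in KO). The change of the genotype difference between oxygen levels was tested for each feature. It passed for 0 of 1540 features after limma's adjustment, with 37 (2.40%) under 0.05 before adjustment, so for no single feature was the genotype difference shown to depend on oxygen.

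**Figure D5:**
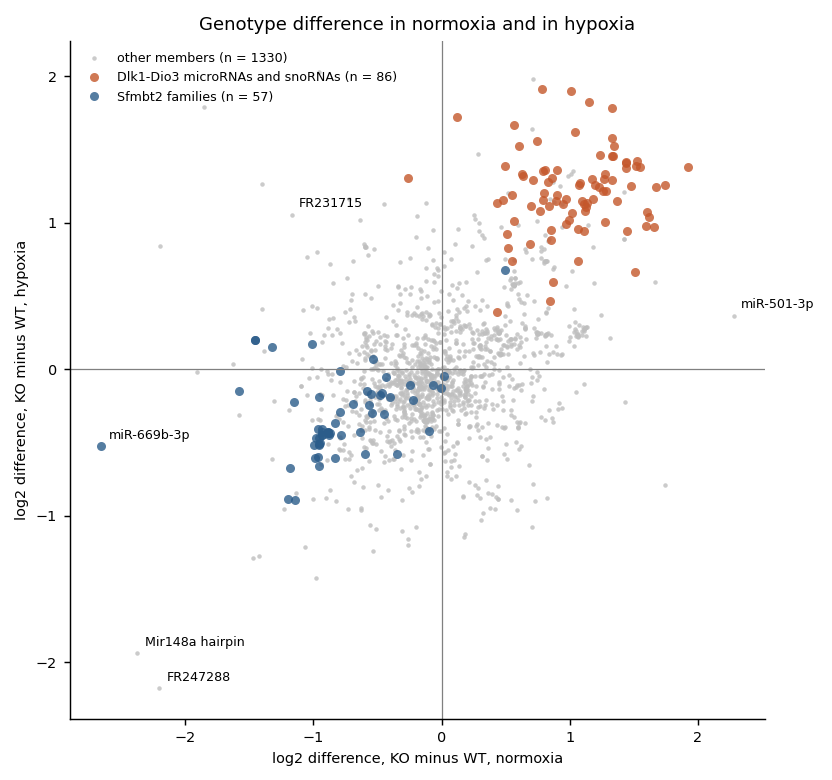
Log2 difference KO minus WT in normoxia (x axis) and in hypoxia (y axis) for the members other than miR-210; orange marks the Dlk1-Dio3 microRNAs and small nucleolar RNAs, blue the Sfmbt2 families and grey the other 1330 members. The orange points lie at the upper right save for miR-758-3p, most blue points lie in the lower left, and miR-501-3p lies far to the right at 2.28 in normoxia and 0.36 in hypoxia.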

How the data were processed

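Small RNA of 8 fibroblast samples was sequenced. Per the labels' protocols, total RNA came from a miRNeasy extraction, followed by a NEBNext small RNA preparation of the SOLiD type. The deposited table holds whole numbers that the authors normalized between libraries, treated here as a score and not as raw counts. The aligner, the build, the normalization and the handling of reads with several matches were not given in the sources used here. The fit took the 1540 features reaching 10 in 2 or more of all 8 libraries. They were fitted with limma 3.58.1 in R 4.3.3 on log2(value + 1), with an intensity trend, 4 group means, 4 residual and 5.64 prior degrees of freedom, and Benjamini-Hochberg adjustment at 0.05. The fit was tested on simulated data. The file's coordinates differ from those of the GRCm38 annotation used for names, and sequences were matched by name (microRNAs) or by sequence (other RNAs).

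Not overlapping means that the lowest library of one genotype lies above the highest of the other. Named features were both arms of miR-210, those past the threshold, the 12 higher and 12 lower non-overlapping members with the smallest p, up to 3 per type and list with the smallest p or highest mean, and those said to be looked up or chosen after their values were seen. Single exceptions to a list, opposite arms and features that ended a count were also chosen after their values were seen. The 23 lists, markers, members and named-feature rule were chosen with earlier results of these data known. The p-values come from 2 libraries a group. Counting intervals treat the values as reads. Alternatives were pseudocounts of 8 and 0.5, filters, TMM, quantile and microRNA-total scaling, microRNAs alone, no trend, a replicate block, normoxia libraries alone and leaving out each library. Deviations of same-numbered libraries correlated between the normoxia groups (r = 0.31), and more between WT normoxia and WT hypoxia (r = 0.55). With 2 numbers they were not treated as pairs.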

Additional observations from a re-analysis of the deposited data

How the results depend on the processing

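The count of 1 feature past the adjusted threshold in normoxia was 1 under 18 of 21 alternatives. It was 2 with no intensity trend (miR-669b-3p added), and between 1 and 2 when single libraries were left out, the 2 being without WT hypoxia number 2 (miR-501-3p added). A replicate block over all 8 libraries gave 1. It was 7 with the replicate block on the 4 normoxia libraries alone, an alternative chosen after seeing the data, adding miR-501-3p, miR-134-5p, miR-467a-5p, miR-335-3p, the Mir148a hairpin and FR247288. The replicate block moved the count at an unadjusted p under 0.05 from 207 to 330. The counts in hypoxia (2) and for the change between oxygen levels (0) kept their values under all 19 alternatives that could be fitted. The 12 higher and 12 lower non-overlapping members with the smallest p-values kept their direction under every alternative run for them. They were chosen for not overlapping, so leaving out a library or changing the pseudocount, filter, trend or block could not turn them. Only the alternatives that rescale the libraries could have done so. Of the 117 other named features, 44 lay on the other side of 0 under at least 1 alternative, miR-21-5p, miR-22-3p, miR-501-5p, FR298990 and ENSMUST00000104719 among them. miR-210-3p passed in all 21 (adjusted p from 2.77e-08 to 0.00526). Low counts limit miR-210-5p, miR-669b-3p and other members near 10.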
